A study of Mus musculus with 48 samples.

Results

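The nuclear genes for the subunits of oxidative phosphorylation were followed through 48 libraries of mouse mammary gland. They were taken as the protein-coding rows of the expression table whose symbol is Ndufa, Ndufb, Ndufc, Ndufs or Ndufv followed by a number, Ndufab1, or Sdha to Sdhd, or begins with Uqcr, Cox4 to Cox8 or Atp5. The assembly factors named Ndufaf fall outside it. The rule found 86 of 55487 rows, which carry 85 symbols: 36 rows for complex I, 4 for complex II, 8 for complex III, 20 for complex IV and 18 for complex V. Ndufa4 and its paralog Ndufa4l2 carry a complex I name but are counted with complex IV, where the protein of Ndufa4 is now placed. Cyc1, a subunit of complex III whose symbol lies outside the rule, is given among the related genes. Atp5o has 2 rows: the usual gene and a second model (ENSMUSG00000116933, chr16:91684398-91926982, minus strand) that overlaps it, so reads of the overlap could be split between them.

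Thoracic mammary glands of 2 mouse models gave the RNA, with 8 groups of 3 libraries in each. All mice carried MMTV-rtTA, in which a mouse mammary tumour virus promoter, active mainly in mammary epithelium, drives an activator that works in the presence of doxycycline, together with tet-op-Esr1 (estrogen receptor alpha) or tet-op-CYP19A1 (aromatase, the enzyme that makes estrogens). In each model the groups were 12 months uninduced, 12 months with 1 week of induction, 18 months uninduced, 18 months with 1 week of induction, 24 months uninduced, 24 months with 6 months of induction, 24 months with 12 months of induction, and 30 months with 18 months of induction. No uninduced 30-month group and no group without a responder transgene was analysed here. The libraries of a group are named biological replicates, but whether each came from its own mouse is not stated, and the p-values cover only the spread among the libraries, which may be technical.

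Oxidative phosphorylation passes electrons from NADH (complex I) and succinate (complex II) through complex III to oxygen at complex IV. Complexes I, III and IV pump protons out of the mitochondrial matrix, and complex V, the ATP synthase, uses their return to make ATP. Most subunits are nuclear genes, while a few of the core ones are encoded in mitochondrial DNA. Complex IV is unusual in that several of its nuclear subunits exist as a widely expressed form and a form of heart and skeletal muscle: Cox6a1 and Cox6a2, Cox7a2 and Cox7a1, Cox8a and Cox8b. In rodents Cox7a1 and Cox8b are also abundant in brown fat. The gland sampled here is a mixed tissue of epithelium, fat and stroma that can carry adjoining muscle. In such bulk RNA, fewer cells of a type and less RNA per cell cannot be told apart.

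The complex IV isoform pairs gave the widest differences of the whole family, and the sequences before their start sites are printed here for 5 of the 6 isoforms, with both kinds of isoform for Cox7a and Cox8 and, for Cox6a, Cox6a1 without Cox6a2. They are RefSeq sequences of build GRCm38.p6 that run from 250 bases before to 50 bases after the gene's start, 5′ to 3′ on the gene's strand. The table of such promoters matched 69 of the 85 symbols. Capitals mark the letters of 3 motifs searched on both strands: GCGCATGCG (NRF1), CCGGAAG (ETS family) and CANNTG (E box).
Cox6a1, chr5:115348909-115349208, minus strand: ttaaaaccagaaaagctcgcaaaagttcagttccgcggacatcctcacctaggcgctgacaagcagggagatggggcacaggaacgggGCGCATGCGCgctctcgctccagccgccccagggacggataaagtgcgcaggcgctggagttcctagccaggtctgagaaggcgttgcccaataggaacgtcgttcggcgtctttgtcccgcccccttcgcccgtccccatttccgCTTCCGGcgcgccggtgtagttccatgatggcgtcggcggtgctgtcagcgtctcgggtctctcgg
Cox7a1, chr7:30183921-30184220, plus strand: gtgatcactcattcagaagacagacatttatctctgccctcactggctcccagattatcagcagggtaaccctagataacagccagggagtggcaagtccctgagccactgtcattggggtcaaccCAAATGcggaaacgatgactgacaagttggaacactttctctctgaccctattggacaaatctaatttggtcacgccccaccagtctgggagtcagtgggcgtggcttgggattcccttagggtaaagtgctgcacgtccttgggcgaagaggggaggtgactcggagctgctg
Cox7a2, chr9:79759804-79760103, minus strand: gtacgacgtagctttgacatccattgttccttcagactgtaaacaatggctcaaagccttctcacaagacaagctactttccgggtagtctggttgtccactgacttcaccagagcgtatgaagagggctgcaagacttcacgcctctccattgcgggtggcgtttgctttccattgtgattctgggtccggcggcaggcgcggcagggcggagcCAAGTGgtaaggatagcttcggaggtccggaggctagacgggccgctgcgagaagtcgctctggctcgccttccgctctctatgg
Cox8a, chr19:7217567-7217866, minus strand: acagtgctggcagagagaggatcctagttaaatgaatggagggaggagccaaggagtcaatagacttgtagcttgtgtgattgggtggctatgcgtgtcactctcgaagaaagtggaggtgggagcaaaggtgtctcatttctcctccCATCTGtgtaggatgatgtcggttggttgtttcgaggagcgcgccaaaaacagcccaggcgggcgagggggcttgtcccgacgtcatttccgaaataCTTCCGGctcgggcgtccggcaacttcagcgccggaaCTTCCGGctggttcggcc
Cox8b, chr7:140900397-140900696, minus strand: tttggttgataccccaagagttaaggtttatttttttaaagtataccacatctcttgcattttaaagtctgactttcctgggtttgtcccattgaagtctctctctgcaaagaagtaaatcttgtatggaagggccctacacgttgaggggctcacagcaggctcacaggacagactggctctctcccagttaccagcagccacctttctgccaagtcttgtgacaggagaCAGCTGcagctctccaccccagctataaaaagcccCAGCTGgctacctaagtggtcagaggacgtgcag

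The NRF1 letters lie in the promoter of Cox6a1, where the palindromic motif matches on both strands with an overlap, and not in the other 4 windows. ETS family letters lie in Cox6a1 and in Cox8a. An E box lies in Cox7a1, Cox7a2, Cox8a and Cox8b, but 72.3% of all 32851 promoters of this length hold one, against 67.6% of the 74 promoters of subunit genes. For NRF1, a factor known to act on respiratory chain genes, the letters occur in 8 of those 74 promoters (10.8%) and in 1.75% of all promoters. The ETS family letters occur in 17 (23%), against 8.86% of all. The letters AAGATGGC (YY1) occur in 10 (13.5%) against 2.75%, and AAGGTCA (estrogen-related receptors, ERR) in 8 (10.8%) against 4.72%. The MEF2 consensus, a motif of muscle genes, occurs in 0 of the 74 and in 3.19% of all. These are matches of letters in a window and describe no binding.

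Levels are TPM, length-scaled transcript abundances, which are set to the same total in every library, so that genes can be compared within a library. Complex V held 30.4% of the subunits' summed TPM (28.7% to 31.8% over the 48 libraries), complex I 28.3% (27.2% to 29.2%), complex IV 26.8% (25% to 28.6%), complex III 10.8% and complex II 3.77%. These shares hardly moved between libraries, although the summed level of all 86 rows ran from 3496 to 14272 TPM. Within complexes I, II and III the subunit with the highest mean exceeded that with the lowest by 4.26-fold, 1.52-fold and 3.05-fold.

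**Figure D1:**
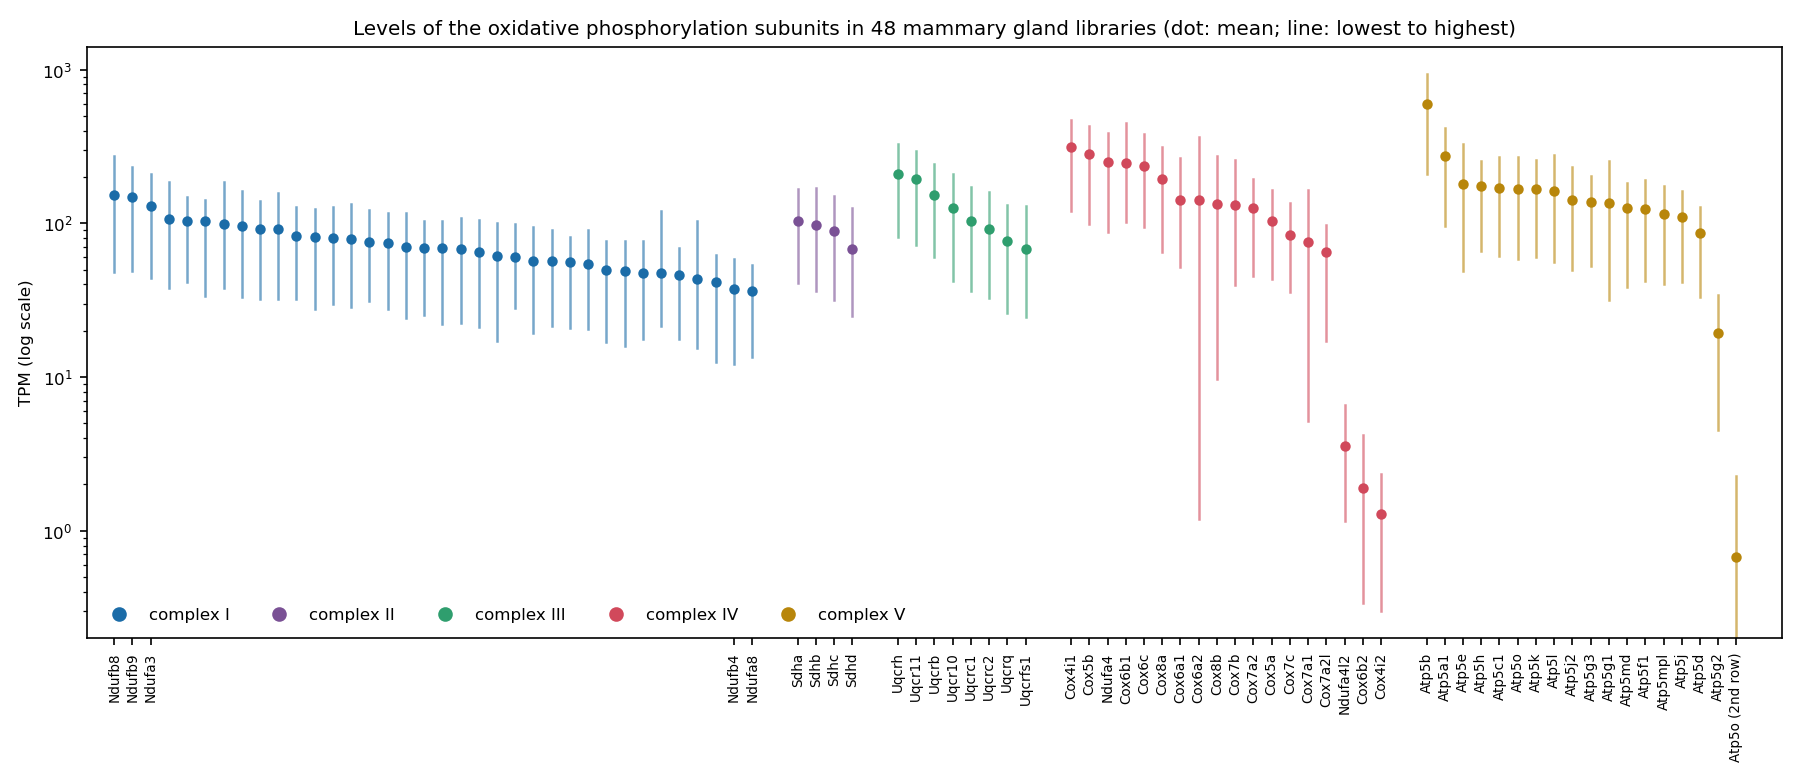
Mean TPM over 48 libraries (dots, log axis) and the range from the lowest to the highest library (lines) for the 84 tested subunits, by complex; in complex I the 3 highest and the 2 lowest are labelled. The lines of Cox6a2, Cox8b and Cox7a1 are the longest among the abundant subunits, and Cox4i2, Cox6b2, Ndufa4l2 and the second Atp5o row (whose lowest value is 0 and lies off the axis) sit far below the rest.

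In complex I the most abundant transcripts were accessory subunits: Ndufb8 with a mean of 154 TPM (48.03 to 273), Ndufb9 with 149 TPM (49.0 to 233) and Ndufa3 with 130 TPM (44.2 to 210). Ndufa8 (36.1 TPM) and Ndufb4 (37.4 TPM) were the lowest. The 7 nuclear core subunits, which hold the flavin and the iron-sulfur clusters or line the quinone site, had a median mean of 69.8 TPM, and the 29 accessory subunits of 68.9 TPM. The core and accessory subunits were thus at like levels. Ndufab1, an acyl carrier protein that also serves mitochondrial fatty acid synthesis, varied little between libraries (28.3 to 98.9 TPM).

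In complex II the order was Sdha, the flavoprotein, at 104 TPM, Sdhb, the iron-sulfur subunit, at 97.0 TPM, and the membrane anchors Sdhc at 89.2 TPM and Sdhd at 68.3 TPM. In complex III the small subunits Uqcrh (208 TPM), Uqcr11 (195 TPM) and Uqcrb (153 TPM) were highest. Uqcrfs1, the Rieske iron-sulfur protein, was lowest at 68.3 TPM, followed by Uqcrq at 76.8 TPM. Over libraries of all groups, neighbours in these orders overlapped in range.

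Complex V was led by the catalytic head: Atp5b, the beta subunit, had the highest mean of all the subunits at 596 TPM. Atp5a1, the alpha subunit, followed at 274 TPM, and then Atp5e, the epsilon subunit of the stalk, at 181 TPM. The ring of c subunits is encoded by Atp5g1, Atp5g2 and Atp5g3, which differ in their import signals and give the same mature protein. Atp5g1 (135 TPM) and Atp5g3 (138 TPM) were at similar means, and Atp5g2 was at 19.3 TPM. The second Atp5o row averaged 0.68 TPM.

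In complex IV the widely expressed subunits were led by Cox4i1 (315 TPM), Cox5b (283 TPM) and Ndufa4 (251.0 TPM), followed by Cox6b1 (247 TPM). Of the restricted isoforms, Cox4i2, a form known from lung and low oxygen, was at 1.28 TPM and at no more than 0.796% of the pair with Cox4i1. Cox6b2, known from testis, was at 1.90 TPM, and Ndufa4l2, a hypoxia-responsive paralog, at 3.55 TPM. Cox7a2l, a supercomplex assembly factor related to Cox7a, was at 64.6 TPM and Cox7b at 132 TPM. Cox8c was listed at 0 in all libraries and Cox7b2 reached 0.14 TPM at most, so neither was tested.

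The 3 muscle isoforms did not belong with these scarce forms. In build mm10 with the GENCODE M21 annotation Cox6a2 spans chr7:128205435-128206387 (minus strand), Cox7a1 chr7:30184144-30186078 (plus strand) and Cox8b chr7:140898945-140900446 (minus strand). Cox6a2 averaged 142 TPM, level with Cox6a1 at 143 TPM, but ran from 1.19 to 363 TPM, a 305-fold range against 5.05-fold for Cox6a1. Cox8b averaged 133 TPM (9.70 to 275) beside 195 TPM for Cox8a, and Cox7a1 75.4 TPM (5.16 to 165) beside 126 TPM for Cox7a2. Over the 48 libraries the standard deviation of log2(TPM + 1) was 1.74 for Cox6a2, 1.15 for Cox7a1 and 1.08 for Cox8b, against a median of 0.47 over the 84 tested subunits and 0.42 over all 20209 genes tested. The smallest were 0.34 for Cox4i2, 0.35 for Ndufab1 and 0.39 for Atp5g3. Cox4i2 is scarce, at 0.30 to 2.33 TPM (7.77-fold), so the added 1 shrinks its spread on this scale. Ndufab1 ran over a 3.49-fold range.

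Libraries differed in ways that reach every subunit. In 9 of 48 libraries ribosomal RNA rows took over 10% of the TPM, up to 67.2%, which lowers all other rows because the total is fixed. These were 7 CYP19A1 libraries (12 months uninduced replicates 1 and 3, all 3 at 12 months with 1 week of induction, 18 months uninduced replicate 1, and 24 months uninduced replicate 3) and 2 Esr1 libraries (replicate 3 of 24 months with 6 months of induction and of 30 months). The 16 skeletal muscle markers summed to 232 to 51819 TPM per library, with all 16 detected in all but 1 library, in which Myh7, of slow fibres, was at 0. The 9 brown adipocyte markers summed to 10.3 to 863 TPM, and Ucp1, which defines that cell type, ran from 0.02 to 263 TPM. The 12 white adipocyte markers (4290 to 16460.0 TPM) and the 12 luminal epithelial markers (95.3 to 988 TPM) were detected in every library. The labels name the tissue as mammary gland. The libraries up to 18 months and those from 24 months on are titled in different ways, so any batch on that boundary cannot be told apart from age.

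**Figure D2:**
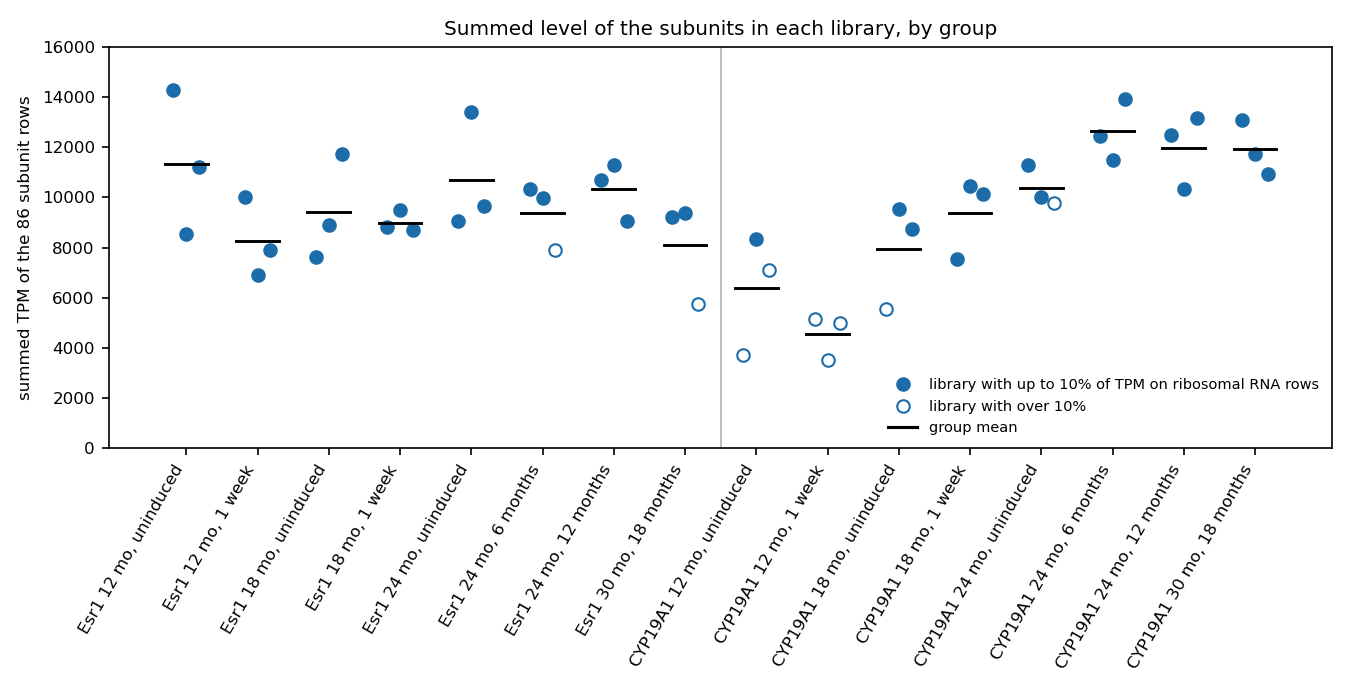
Summed TPM of the 86 subunit rows in each library (points) with the group mean (bar), for the 8 Esr1 groups (left) and the 8 CYP19A1 groups (right). Open points, the libraries with over 10% of TPM on ribosomal RNA rows, include the lowest library of each of the 6 groups that hold one.

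The group with the lowest summed level was CYP19A1 at 12 months with 1 week of induction, at 4540.5 ± 909 TPM (SD, n = 3), in which all 3 libraries carried over 10% ribosomal RNA. The highest was CYP19A1 at 24 months with 6 months of induction, at 12630.5 ± 1216 TPM. Between these, the CYP19A1 uninduced groups stood at 6375 ± 2385 TPM at 12 months, 7944 ± 2102 TPM at 18 months and 10365 ± 822 TPM at 24 months, and the Esr1 uninduced groups at 11343.5 ± 2859, 9425 ± 2106 and 10703 ± 2354 TPM. The Esr1 groups overlapped one another at these ages, while the 12-month and 24-month CYP19A1 groups did not overlap.

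The share of the muscle isoform in each pair is free of the library's scale, because both members come from the same library. Cox6a2 made up 0.863% to 86.5% of Cox6a1 plus Cox6a2, with a median of 47.4%, and exceeded Cox6a1 in 21 of 48 libraries. Cox8b exceeded Cox8a in 13 libraries and Cox7a1 exceeded Cox7a2 in 3. Atp5g1 made up 22.5% to 58.5% of the 3 c subunit genes.

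In uninduced Esr1 glands the Cox6a2 share was 34.8%, 8.54% and 39.0% at 12 months, 22.3%, 32.8% and 86.5% at 18 months, and 51.0%, 62.7% and 32.3% at 24 months. In uninduced CYP19A1 glands it was 38.6%, 2.12% and 4.53% at 12 months, 13.7%, 59.0% and 44.6% at 18 months, and 65.7%, 50.1% and 71.5% at 24 months. The 12- and 24-month values overlapped in the Esr1 model and did not in the CYP19A1 model, and the spread within a group was often as wide as the span between groups. At 30 months the shares were 72.5%, 79.0% and 67.6% in the Esr1 model and 62.1%, 72.1% and 59.4% in the CYP19A1 model. These 2 groups and the Esr1 group at 24 months with 6 months of induction (51.7% ± 3.32, SD, n = 3) were among the narrowest. The lowest group mean was that of Esr1 glands at 12 months with 1 week of induction (18.9%, 1.92% and 5.09%).

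Cox7a1 and Cox8b followed a like order. The Cox7a1 share was 45.3% ± 0.808 and 49.8% ± 1.53 (SD, n = 3) in the Esr1 and CYP19A1 30-month groups, against 13.7% ± 14.1 in Esr1 glands at 12 months with 1 week of induction. The Cox8b share was 56.7% ± 4.98 and 57.4% ± 3.92 at 30 months, against 14.1% ± 13.5 in that same 12-month group. Atp5g1 made up 32.0% ± 4.14 of the c subunit transcripts in uninduced CYP19A1 glands at 12 months and 51.2% ± 2.60 at 24 months, with no test of the share. The summed skeletal muscle markers in those 2 groups were 693 to 5719 TPM and 20603 to 32101 TPM, and the slopes of the isoforms on these markers follow.

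**Figure D3:**
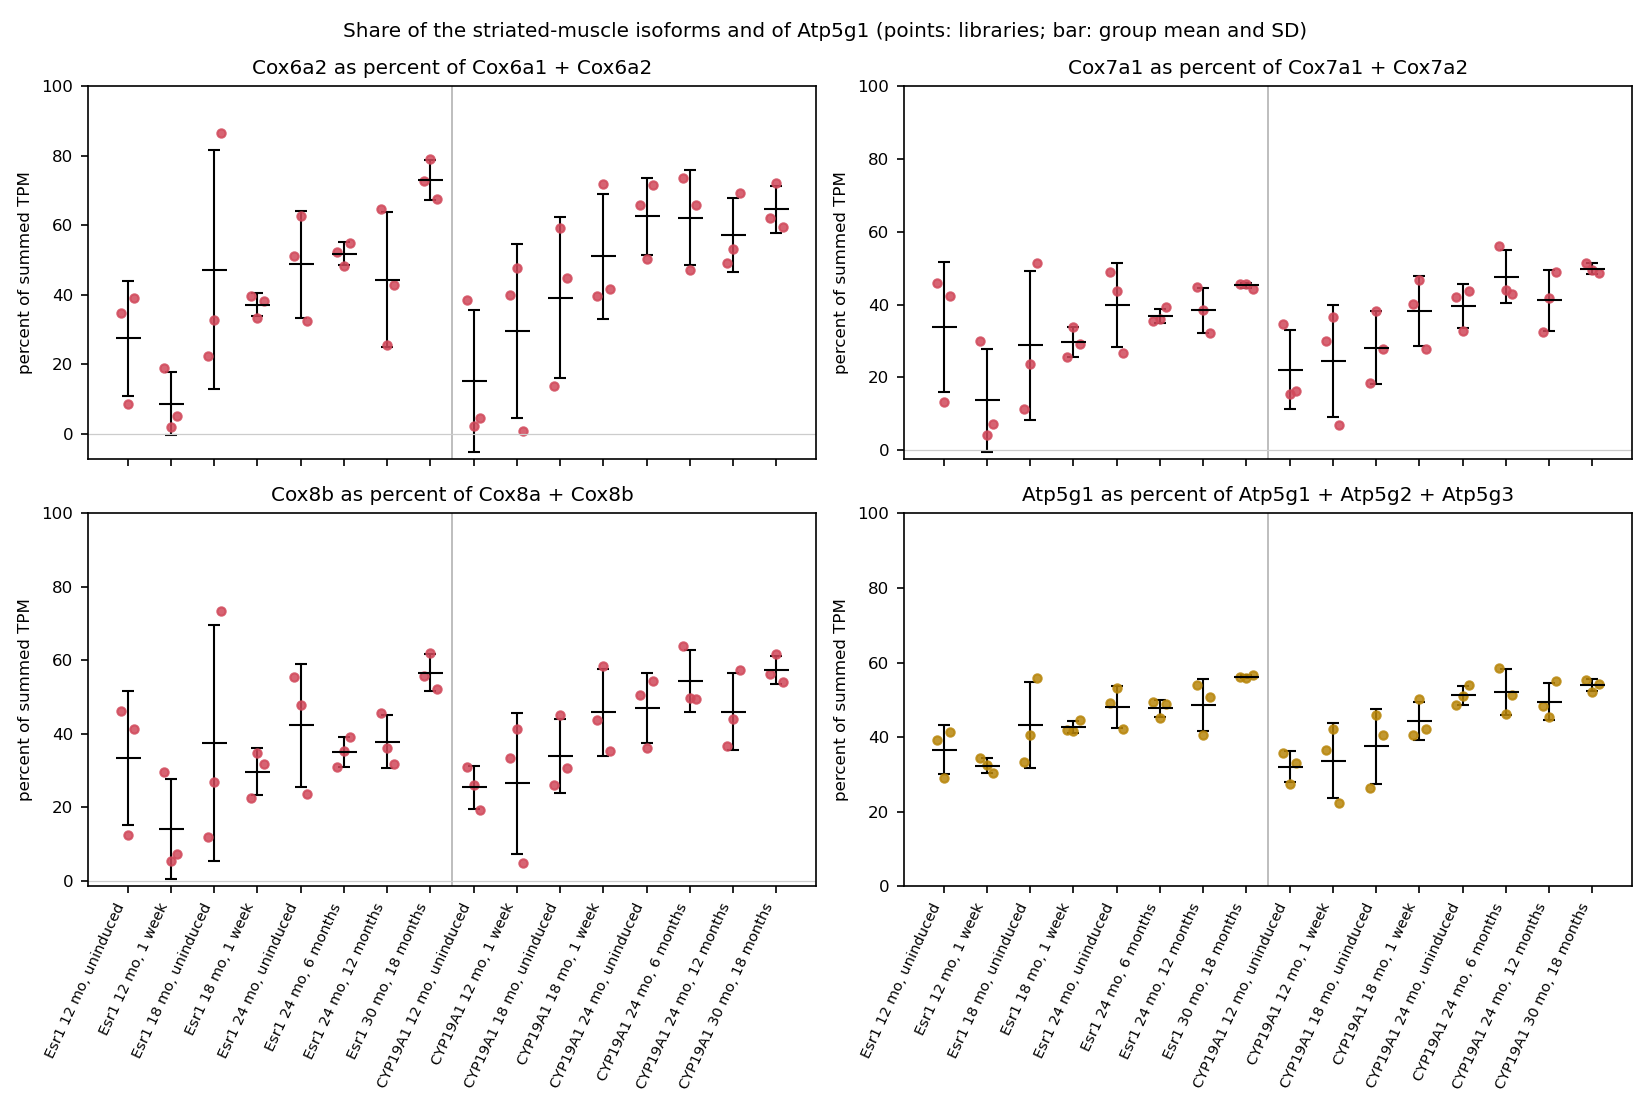
Percent of each isoform in its pair (Cox6a2, Cox7a1, Cox8b) or of Atp5g1 among the 3 c subunit genes, by group: points are libraries, bars the group mean and SD (n = 3), with Esr1 groups left of the line. At 30 months the Cox6a2 share was 59.4% or more in all 6 libraries, and at 12 months it was 47.8% or less in all 12.

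To set the subunits against the muscle content of the libraries, log2(TPM + 1) of each gene was regressed on the log2 sum of the 16 muscle markers within groups, so that differences between groups do not enter (limma, all 20209 genes, Benjamini-Hochberg adjusted p under 0.05). Of 84 subunits, 15 rose with the markers and 3 fell, where 3.66% of all genes rose and 26.7% fell. Cox6a2 rose by 0.94 log2 units per doubling of the markers (SE 0.03, adjusted p = 2.85e-26), Cox7a1 by 0.57 (SE 0.06, adjusted p = 1.71e-09) and Cox8b by 0.52 (SE 0.07, adjusted p = 2.74e-07). Atp5g1 followed at 0.23 (SE 0.05, adjusted p = 0.00222). The slope of Cox6a2 was close to 1, so this subunit almost doubled whenever the muscle markers doubled.

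The other 11 that rose had slopes from 0.10 to 0.16: Ndufa5, Ndufa13, Ndufb5, Ndufc1, Ndufs7 and Ndufv2 of complex I, Sdhb of complex II, Cox5a and Cox6c of complex IV, and Atp5e and Atp5k of complex V. The 3 that fell were Ndufa4l2 at -0.17, Cox8a at -0.16 and Cox6a1 at -0.15. The last 2 are the widely expressed partners of Cox8b and Cox6a2. The median slope was 0.07 over the subunits and -0.09 over all genes. With TPM rescaled by the median of ratios, 75 subunits rose and 0 fell, where 12.6% of all genes rose and 7.05% fell. Rescaled to nuclear protein-coding genes 68 rose and 2 fell, against 6.13% and 30.4% of all genes. On the median of ratios the slopes of Cox8a and Cox6a1 were -0.01 and -0.01 and that of Ndufa4l2 -0.07, so their fall depends on the scale. Without replicate 3 of the Esr1 18-month uninduced group 4 subunits were called, and without replicate 1 of the CYP19A1 12-month uninduced group 38. Within the 12- and 18-month libraries alone 3 subunits rose, among 756 genes called in all. Within the 24- and 30-month libraries alone 14 rose, with 0 falls in both sets. The number of all genes called in the 24- and 30-month fit and in the single-library fits is not given here. Those counts of subunits cannot be set against it.

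**Figure D4:**
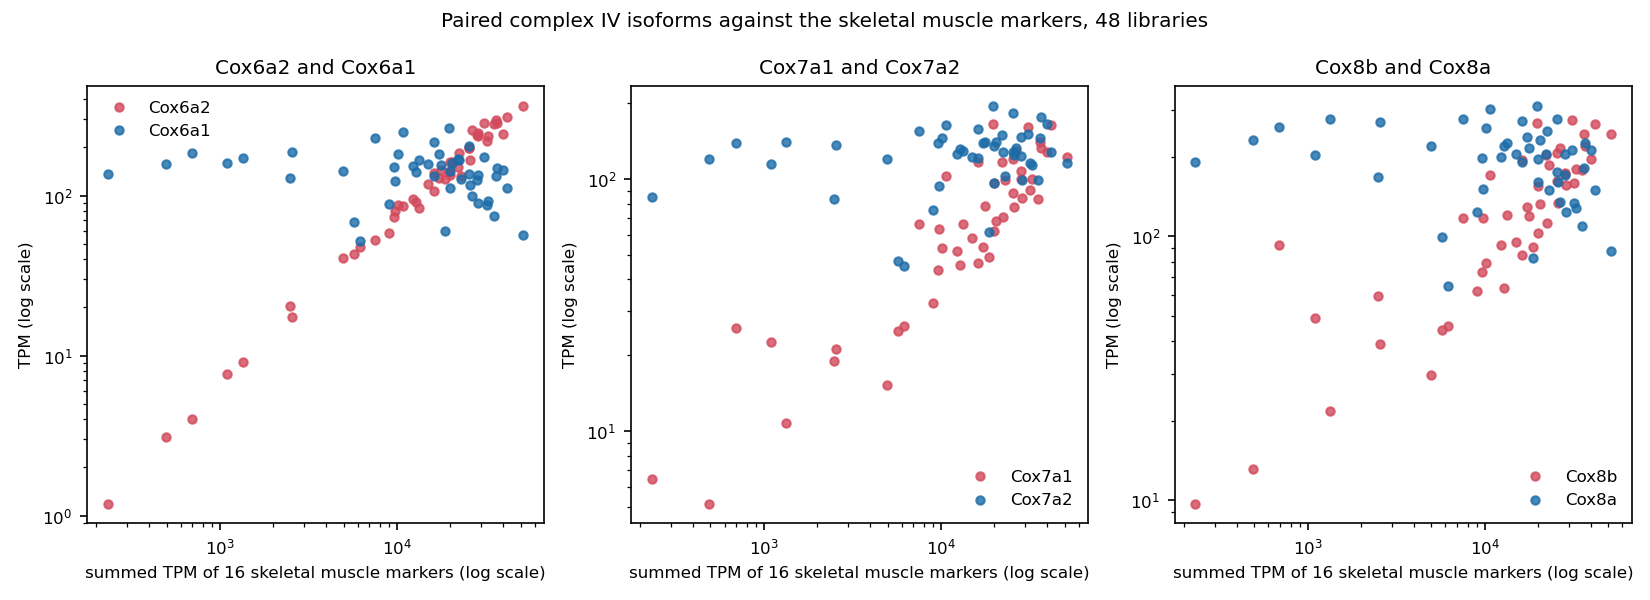
TPM of the muscle isoform (red) and of its widely expressed partner (blue) against the summed TPM of 16 skeletal muscle markers in 48 libraries, both axes log. Cox6a2 climbs from 1.19 to 363 TPM along the marker sum, Cox7a1 and Cox8b less steeply, and Cox6a1, Cox7a2 and Cox8a show no such climb.

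The same regression on the brown adipocyte markers called 0 subunits (limma, adjusted), against 0.0099% of all genes higher and 0% lower. Cox8b had the smallest p with a slope of 0.55 (SE 0.13, adjusted p = 0.128), followed by Cox7a1 with 0.52 (adjusted p = 0.216). Both passed under the median of ratios (Cox8b 0.66, adjusted p = 0.00735; Cox7a1 0.66, adjusted p = 0.00958) and under the protein-coding scale, where 24 and 3 subunits rose, against 0.849% and 0.145% of all genes. Within the 24- and 30-month libraries alone the slopes were 0.03 for Cox8b and 0.04 for Cox7a1. Of the 9 brown adipocyte markers, Fabp3 (mean 123 TPM) and Cpt1b (43.6 TPM) had the highest means and are also expressed in muscle. On average they weigh most in the marker sum, so the 2 sets of slopes are not independent.

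The widest age difference of the subunits was in uninduced CYP19A1 glands, between 12 and 24 months. By limma, 15 subunits were higher at 24 months and 0 lower, where 4.24% of all 20209 genes passed. By complex these were 8 of 36 in complex I, 1 of 4 in complex II, 1 of 8 in complex III, 1 of 18 in complex IV and 4 of 18 in complex V. The median change was 0.75 on the log2 scale for the subunits and 0.22 for all genes tested.

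Cox6a2 was at 43.1, 4.01 and 7.63 TPM at 12 months and at 239, 161 and 221 TPM at 24 months. The groups did not overlap, and the fitted log2 change was 4.05 (SE 0.94, adjusted p = 0.0089). Atp5g1, at 32.9, 58.7 and 67.6 TPM and then 177, 144 and 183 TPM, rose by 1.70 (SE 0.38, adjusted p = 0.00806). Atp5e, at 48.8, 124 and 109 TPM and then 249, 223 and 229 TPM, rose by 1.41 (SE 0.33, adjusted p = 0.00868). Ndufb2, an accessory subunit of the membrane arm of complex I, at 19.2, 39.2 and 34.4 TPM and then 76.4, 62.9 and 72.6 TPM, rose by 1.22 (SE 0.29, adjusted p = 0.00933). In these 4 genes every 24-month library lay above every 12-month library.

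Those that rose by less included Ndufs7, a core subunit of complex I, Ndufa2, Ndufa9, Ndufa11, Ndufa13 and Ndufb5, accessory ones, Sdhc, an anchor of complex II, Uqcr10 of complex III, and Atp5c1 (the gamma subunit) and Atp5mpl of complex V, with log2 changes from 0.91 to 1.10. Cox6a1 (-0.07, adjusted p = 0.954) and Cox8a (0.00, adjusted p = 1) did not pass, and Atp5b, at 209, 538 and 470 TPM and then 715, 678 and 631 TPM, changed by 0.84 (adjusted p = 0.0973). Over all tested subunits 58 did not overlap between the groups on the higher side, against 9.31% of all genes, and 1, Ndufa12, did not on the lower side, against 0.381%. On the median of ratios 5 were higher without overlap, against 9.98% of all genes, and on the protein-coding scale 58, against 10.2%.

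In that same comparison 15 of 16 skeletal muscle markers rose, with a median log2 change of 3.98, and ribosomal RNA rows took 67.2%, 0.122% and 22.2% of TPM at 12 months and 0.072%, 0.206% and 15.6% at 24 months. With the median of ratios 0 subunits were called, among 61 genes in all (limma, smallest adjusted p of a subunit 0.0939). With the 2 groups fitted alone 0 were called, among 3 genes in all (limma, smallest 0.0672). The log2 change of Cox6a2 was 3.62 and 4.05 in these fits, and 5.30 without the libraries over 10% ribosomal RNA. Leaving those libraries out leaves 1 library at 12 months and 2 at 24 months, with the lone library assumed to vary like those of the other groups. The protein-coding scale called 8 subunits, among 706 genes in all. Without replicate 2 of the 12-month group 63 were called and without replicate 1 of that group 1, which is Cox6a2. Without replicate 1, 2 or 3 of the 24-month group 1, 4 and 3 were called. The number of all genes called in these single-library fits is not given here, so the 63 cannot be set against it. The part of muscle and ribosomal RNA in the age difference was not tested.

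Of all genes tested, 4.18% rose in this comparison, some other genes of respiration among them. Slc25a4, the muscle-rich carrier of ADP and ATP, rose by 2.36 (adjusted p = 0.00566), Vdac1 by 1.52 and Vdac3 by 1.18, 3 of 7 tested nucleotide and phosphate carriers. Perm1, a muscle regulator of mitochondrial genes, rose by 2.33 (adjusted p = 0.00559), 1 of 15 regulators. Ppargc1a, the coactivator of mitochondrial biogenesis, was at 2.36 ± 1.37 and 5.62 ± 1.74 TPM (SD, n = 3). Of 46 tested assembly factors 3 rose (Uqcc2 1.19, Atpaf1 1.01, Ndufaf8 0.82), and of 7 genes of Cyc1 and the electron carriers 1, Coq9 (0.97). Cyc1 was at 46.3 ± 15.1 and 67.8 ± 3.89 TPM. None of the 16 genes of the tricarboxylic acid cycle passed (smallest adjusted p 0.0569, limma), and the 13 mitochondrially encoded subunits had a median change of -0.12 with 0 calls.

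In the Esr1 model 24 against 12 months without induction gave 0 subunit calls (limma), against 0.574% of all genes. At an unadjusted p under 0.05 there were 2 higher and 2 lower, without the share of all genes to set them against. Ndufs5, an accessory subunit of complex I, had the smallest p: it was at 51.6, 35.1 and 41.5 TPM at 12 months and 66.7, 104 and 71.8 TPM at 24 months, a log2 change of 0.89 (SE 0.27, adjusted p = 0.155). It passed on the protein-coding scale (adjusted p = 0.0261) and without the libraries of high ribosomal RNA elsewhere in the fit (adjusted p = 0.038), and not on the median of ratios (adjusted p = 0.0562). Cox7c, a small subunit of complex IV, was at 117, 116 and 135 TPM and then 53.6, 99.9 and 89.4 TPM (-0.64, adjusted p = 0.405). Ndufs5 was the 1 subunit above without overlap (3.86% of all genes) and 6 were below without overlap (8.61%). Of the mitochondrially encoded subunits 2 of 13 fell, mt-Nd4l by 2.32 and mt-Nd3 by 1.65 on the log2 scale, and the median of the 13 was -1.24.

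The change from 12 to 24 months was also compared between the models. The difference (Esr1 change minus CYP19A1 change) called 0 subunits (limma), against 0.0396% of all genes, with 1 above and 48 below at an unadjusted p under 0.05 (0.623% and 5.86% of all genes). Cox7c differed by -1.07 (SE 0.35, adjusted p = 0.766). A larger age difference in the CYP19A1 model than in the Esr1 model was therefore not shown for any subunit.

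From 12 to 18 months without induction 0 subunits were called in either model (limma), against 0% of all genes in the Esr1 model and 0.0099% in the CYP19A1 model, with 4 and 5 at an unadjusted p under 0.05. In the Esr1 model Cox6a1 was at 264, 188 and 217 TPM and then 143, 150 and 56.6 TPM (-1.04, SE 0.36), and Cox8a at 312, 271 and 274 TPM and then 220, 199 and 88.2 TPM (-0.86, SE 0.35), both with adjusted p = 1. Neither pair of groups overlapped, and 3 subunits in all were lower without overlap (4.17% of all genes) and 0 higher (1.53%). The Esr1 18-month library with the lowest Cox6a1 and Cox8a, replicate 3, also held the highest muscle marker sum of all, 51819 TPM.

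In the CYP19A1 model the smallest p at that step was for Cox6a2, at 43.1, 4.01 and 7.63 TPM and then 20.4, 168 and 107 TPM (2.56, SE 0.94, adjusted p = 0.746), and next for Atp5g2 (0.72, adjusted p = 0.848). As deposited, the groups overlapped for every subunit: 0 subunits were higher without overlap (1.52% of all genes) and 0 lower (0.242%). On the protein-coding scale 16 were higher without overlap (4.36% of all genes) and on the median of ratios 1 (4.08%).

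Between 30 months after 18 months of induction and 24 months after 12 months, age and length of induction change together. In the Esr1 model 0 subunits were called (limma), against 0.139% of all genes, with 12 lower at an unadjusted p under 0.05 (15.4% of all genes). Cox6a1 was at 135, 250 and 157 TPM at 24 months and 89.5, 74.4 and 60.4 TPM at 30 months (-1.23, SE 0.36, adjusted p = 0.128). Cox8a was at 204, 303 and 206 TPM and then 124, 109 and 83.0 TPM (-1.16, SE 0.35, adjusted p = 0.141). These widely expressed forms did not overlap, whereas their muscle partners Cox6a2 (0.58) and Cox8b (-0.05) differed by less than their standard errors. In all 23 subunits were lower without overlap, where 35.6% of all genes were, and 0 higher (0.638%). On the median of ratios 17 were higher and 3 lower without overlap, against 8.51% and 9.1% of all genes, on the protein-coding scale 0 and 7, against 3.03% and 15.1%, and the 30-month replicate 3 held 50.3% ribosomal RNA.

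In the CYP19A1 model the same step gave 0 calls (limma) against 0% of all genes and a median of -0.02, with 1 subunit at an unadjusted p under 0.05. The smallest p-values belonged to the scarce second Atp5o row (-0.95) and Cox4i2 (-0.36), both with adjusted p = 0.969. Without overlap 1 subunit was lower (21.6% of all genes) and 0 higher (0.757%), but on either rescaling 40 were higher, against 4.94% (median of ratios) and 3.93% (protein-coding) of all genes, so the direction here depends on the scale.

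**Figure D5:**
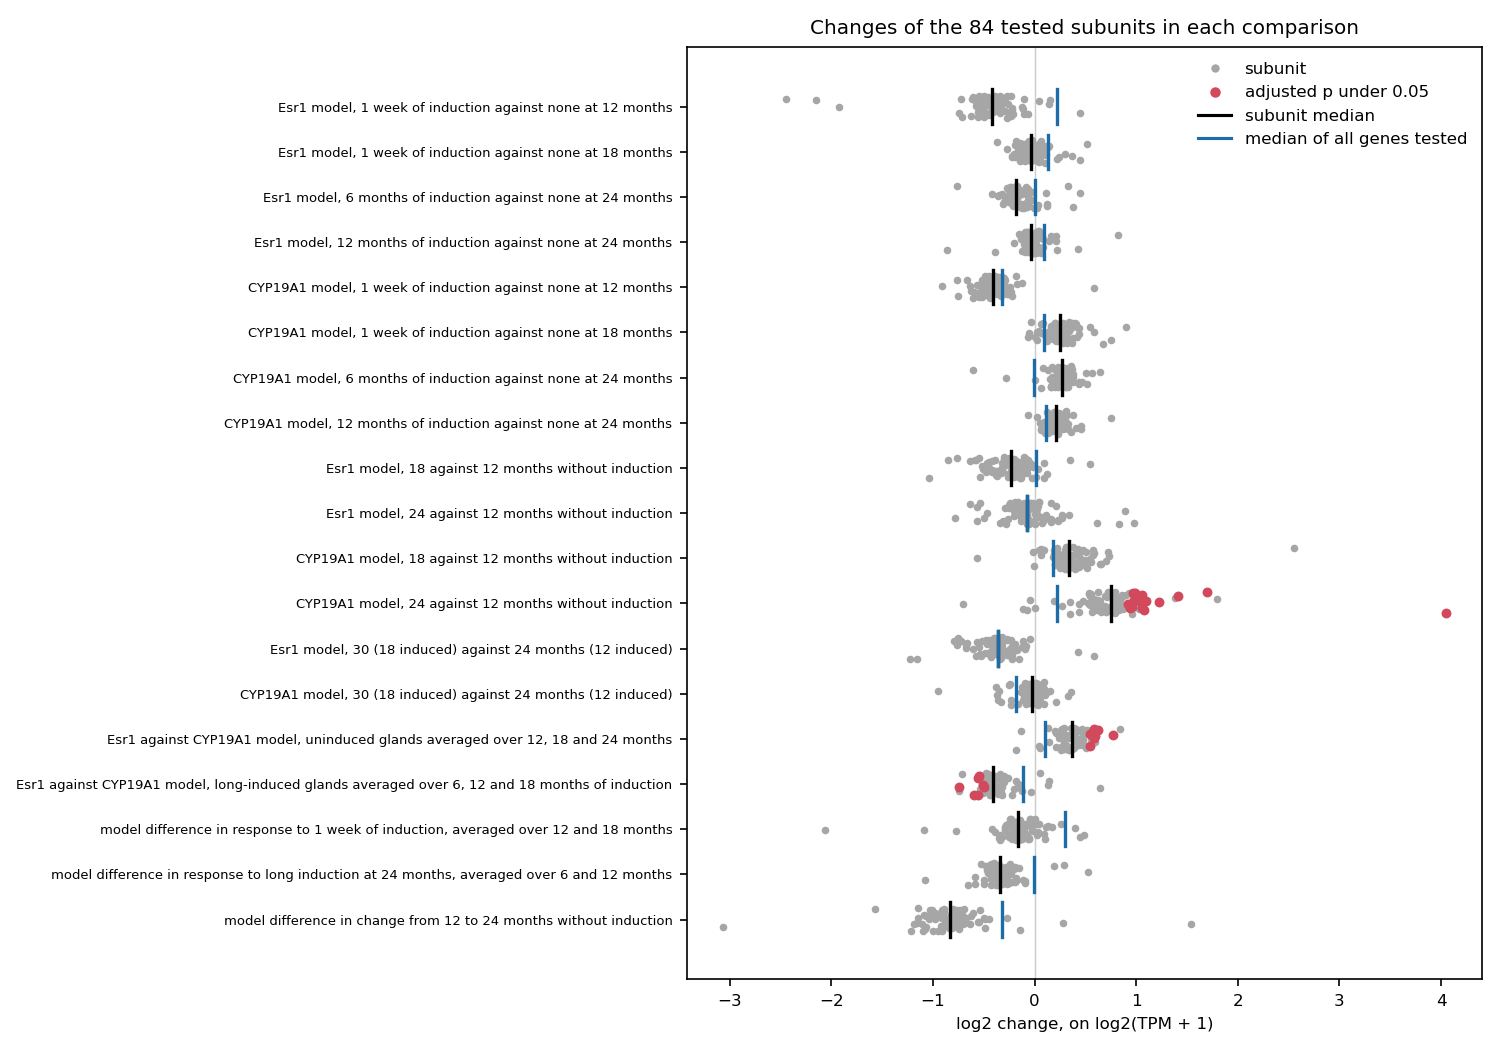
Log2 changes of the 84 tested subunits (points; red where limma's adjusted p is under 0.05) in 19 comparisons, with the subunit median (black) and the median of all genes tested (blue). Red points appear in 3 comparisons, and in most others the subunits move as a block on 1 side of 0.

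One week of induction in the Esr1 model at 12 months gave 0 subunit calls (limma), where 0.0099% of all genes passed, and 13 lower at an unadjusted p under 0.05 (1.72% of all genes). The 3 muscle isoforms had the largest changes. Cox7a1 was at 165, 21.2 and 117 TPM uninduced and 66.6, 5.16 and 10.8 TPM induced (-2.16, SE 0.66, adjusted p = 0.754), and Cox8b at 268, 39.1 and 194 TPM and then 117, 13.2 and 21.7 TPM (-1.93, SE 0.65, adjusted p = 0.754). Both overlapped between the groups. The muscle markers summed to 19689, 2547 and 16190.0 TPM and then 7546, 493.5 and 1343 TPM. Without overlap 1 subunit was higher (10.1% of all genes) and 1, Cox7c, was lower (1.88%).

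At 18 months 1 week of Esr1 induction gave 0 calls (limma) against 0% of all genes, and 0 subunits at an unadjusted p under 0.05. Cox6a1 (0.52, SE 0.36) and Cox8a (0.45, SE 0.35) had the smallest p, both with adjusted p = 1, and 0 subunits were without overlap on either side (4.26% and 0.5% of all genes). On either rescaling 2 were lower without overlap (3.05% of all genes on the median of ratios and 0.713% on the protein-coding scale).

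In the CYP19A1 model 1 week of induction at 12 months gave 0 calls (limma) against 0% of all genes, with 8 lower at an unadjusted p under 0.05 (6.61% of all genes). Ndufa10, an accessory subunit of complex I, changed by -0.76 (SE 0.26) and Cox7b by -0.75 (SE 0.27), both with adjusted p = 0.548. Cox7b and Atp5k were lower without overlap (1.36% of all genes), and 0 were higher (0.158%). Without replicate 1 of the uninduced group, which held 67.2% ribosomal RNA, 64 subunits were called lower, and most of all genes tested were called as well. All 3 induced libraries held 36.7% to 49.8% ribosomal RNA, and on the median of ratios the subunits' median change was -0.02.

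At 18 months the CYP19A1 model gave 0 calls (limma) against 0% of all genes and a median of 0.25, with Cox7c (0.40, SE 0.25) and Ndufa6 (0.40, SE 0.25) first, both with adjusted p = 1. Without overlap 0 were higher (2.12% of all genes) and 0 lower (1.66%), but on the protein-coding scale 12 were higher (4.22%) and on the median of ratios 2 (3.33%). The difference between the models in the response to 1 week (Esr1 minus CYP19A1) called 0 subunits (limma) against 0% of all genes, with 1 at an unadjusted p under 0.05. Cox6a2 led with -2.06 (SE 0.94, adjusted p = 0.548), followed by Cox7a1 with -1.09 (SE 0.66).

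Long induction in the Esr1 model at 24 months gave 0 calls after 6 months (limma; 0% of all genes) and 0 after 12 months (0.00495%), with 0 and 2 subunits at an unadjusted p under 0.05. Ndufa12, an accessory subunit of complex I, had the smallest p in both: it was at 79.8, 119 and 56.3 TPM uninduced, 66.7, 30.7 and 51.7 TPM after 6 months (-0.77, SE 0.39) and 69.7, 23.2 and 53.0 TPM after 12 months (-0.86, SE 0.39), all with adjusted p = 1 and with overlap. Sdha came next after 6 months (-0.42, SE 0.27), and the second Atp5o row after 12 months (0.82, SE 0.41). The 2 comparisons share their uninduced group. Without overlap, 0 were higher after 6 months (1.31% of all genes) and 1 lower, Ndufb4 (0.846%), and after 12 months 0 were higher (5.42%) and 1 lower, Ndufs5 (0.762%). On the median of ratios 9 were lower after 6 months (3.38% of all genes) and 7 after 12 months (2.92%), and on the protein-coding scale 4 (1.23%) and 3 (1.33%).

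In the CYP19A1 model long induction also gave 0 calls after 6 months (limma; 0% of all genes) and 0 after 12 months (0.0198%), with 0 subunits at an unadjusted p under 0.05 in both. After 6 months 82 of 84 estimates lay above 0, with a median of 0.27 against 0.00 for all genes, and 38 subunits were higher without overlap against 2.2% of all genes. By group sums the uninduced libraries held 11301, 10034.5 and 9760.4 TPM of subunits and the induced ones 12463.5, 11507 and 13921 TPM. On the median of ratios 3 subunits were higher without overlap (3.41% of all genes) and on the protein-coding scale 16 (1.78%), so the count depends on the scale. On the lower side stood 1, the second Atp5o row (2.11%).

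Cox4i2 (0.50, SE 0.26) and Ndufab1 (0.47, SE 0.25) had the smallest p after 6 months, both with adjusted p = 1. After 12 months the second Atp5o row (0.75, SE 0.41) and Cox4i2 (0.45, SE 0.26) came first. There 5 subunits were higher without overlap (6.78% of all genes): the second Atp5o row, Ndufa1, Ndufab1, Uqcr11 and Uqcrq. None was lower, 0 of 84 (1.14%). The difference between the models in the response to long induction called 0 (limma) against 0% of all genes, with 1 at an unadjusted p under 0.05, Ndufa12 (-1.08, SE 0.48), and next Cox7b (-0.53, SE 0.33), both with adjusted p = 1.

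Between the models, uninduced glands averaged over 12, 18 and 24 months had 7 subunits higher in the Esr1 model and 0 lower (limma), where 2.95% of all genes passed (398 higher, 198 lower). Atp5g2 differed by 0.78 (SE 0.19, adjusted p = 0.0156), Cox7b by 0.62 (SE 0.15, adjusted p = 0.0145), Atp5l, a membrane subunit of the ATP synthase, by 0.59 (SE 0.16, adjusted p = 0.0247), and Cox7c by 0.59 (SE 0.14, adjusted p = 0.0129). Ndufa3 (0.58), Atp5md (0.55) and Ndufs4 (0.54) were the other 3. Of the related genes, Atpaf1 (0.61), Ndufaf1 (0.55) and Tmem70 (0.54), all assembly factors, were higher, 3 of 46, as was mt-Nd3 (0.81), 1 of 13, where 1.97% of all genes were. Of the cell type lists 1 of 8 tested brown adipocyte markers and 1 of 8 milk genes were higher too. Without the second 24-month Esr1 library 2 subunits were called, and without the second 12-month CYP19A1 library 22. The number of all genes called in these single-library fits is not given here, so the 2 and 22 cannot be set against it.

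Atp5g2 was at 30.4, 31.8 and 22.2 TPM in Esr1 glands at 12 months against 4.53, 14.67 and 14.98 TPM in CYP19A1 glands. At 18 months it was at 34.4, 30.7 and 25.01 TPM against 13.1, 17.7 and 22.4 TPM, and at 24 months at 13.0, 26.6 and 17.9 TPM against 21.3, 11.2 and 16.3 TPM. The models did not overlap at 12 and 18 months and overlapped at 24 months. With the 12- and 18-month groups alone 12 subunits were called, among 511 genes in all. With the 24-month groups alone 0 of the 124 genes called were subunits. Both alternatives were chosen after seeing the data. Without the libraries over 10% ribosomal RNA, 4 of them uninduced CYP19A1 libraries, 1 CYP19A1 library is left at 12 months uninduced. Atp5g2 then differed by 0.56 on the log2 scale, less than with all libraries. With the compared groups alone 0 of the 211 genes called were subunits.

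In long-induced glands, averaged over 6, 12 and 18 months of induction, the sign was negative: 0 subunits were higher in the Esr1 model and 7 lower (limma), where 4.15% of all genes passed (238 higher, 601 lower). Sdhb differed by -0.59 (SE 0.16, adjusted p = 0.0266), Uqcrc1, a core subunit of complex III, by -0.56 (SE 0.17, adjusted p = 0.0497) and Sdha by -0.55 (SE 0.16, adjusted p = 0.0344). Ndufs1 (-0.55) and Ndufs8 (-0.51), core subunits of complex I, and its accessory subunit Ndufa6 (-0.50) were also lower. Uqcrc1 lay at the threshold and did not pass by limma with a pseudocount of 0.1 (adjusted p = 0.0503) or the replicate block (0.0602). Nor did it pass without a filter (0.0631), with the filter of 24 libraries (0.0567) or on the median of ratios (0.167). Without the libraries over 10% ribosomal RNA the changes of Sdhb and Uqcrc1 were -0.49 and -0.46. Both catalytic subunits of complex II, Sdha and Sdhb, were thus called lower in the Esr1 model, but not on the median of ratios (limma, adjusted p = 0.0903 and 0.158). The anchors Sdhc (-0.51, adjusted p = 0.0718) and Sdhd (-0.45, adjusted p = 0.0945) had similar changes without passing. The median changes were -0.40, -0.53, -0.47, -0.39 and -0.40 in complexes I to V, so the lower level was not particular to complex II.

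Sdha was at 97.8, 79.8 and 65.5 TPM after 6 months, 113, 114 and 92.1 TPM after 12 months and 91.9, 97.6 and 65.4 TPM after 18 months of Esr1 induction. In CYP19A1 glands it was at 135, 143 and 150 TPM, 143, 106 and 139 TPM, and 127, 120 and 124 TPM. The models overlapped after 12 months of induction and did not after 6 and 18 months. The Esr1 values of 65.5 and 65.4 TPM came from libraries with 33.4% and 50.3% of TPM on ribosomal RNA rows. Those rows took 0.425% at most in the long-induced CYP19A1 libraries. The part of ribosomal RNA in the difference was not tested.

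Of the tricarboxylic acid cycle, which feeds complexes I and II, 4 of 16 genes were lower in the Esr1 model, where 2.97% of all genes were: Pdhb (-0.62), Fh1 (-0.60), Dlat (-0.59) and Suclg1 (-0.52). Also lower were Coq9 (-0.58), of the 7 genes of Cyc1 and the electron carriers, and mt-Nd4l (-0.93), of the 13 mitochondrially encoded subunits. Among the 47 assembly factors listed, Ndufaf4 (-0.56) and Uqcc1 (-0.50) were lower. Tfb1m (-0.49) was lower as well. In the same comparison 6 of 8 milk genes were higher in the Esr1 model, with a list median of 3.65, and 0 of 16 skeletal muscle markers passed (list median -0.44). Of the other lists, 1 brown adipocyte, 1 luminal and 1 endothelial marker were lower, and their part in the result was not tested. The count rests on the scale. On the median of ratios 2 subunits higher and 1 lower passed, among 1967 genes in all. On the protein-coding scale 1 higher and 30 lower passed, among 1662 genes. With the compared groups alone the count was 38, among 1595 genes. It was 1 without the third Esr1 library of 6 months of induction, where the number of all genes called is not given here.

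The 13 subunits encoded in mitochondrial DNA were set against the nuclear ones as a ratio of summed TPM within each library, which is free of the library's scale. It was 2.16 to 3.54 (median 2.51) in the 24 libraries of 12 and 18 months and 1.25 to 2.39 (median 1.72) in the 24 libraries of 24 and 30 months. In both models every group mean of the younger ages (2.25 to 2.97) lay above every group mean of the older ages (1.57 to 1.88). The lowest were uninduced CYP19A1 glands at 24 months, at 1.82, 1.25 and 1.63, and the highest uninduced Esr1 glands at 12 months, at 3.22, 2.68 and 3.02. The boundary is also where the style of the titles changes, so age and a batch cannot be told apart here.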

How the data were processed

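The deposited table gives TPM for 48 libraries (rRNA-depleted total RNA, stranded, single reads of 75 bases, per the labels' protocols). Per the submitters' processing notes the authors named build mm10, the quantifier RSEM 1.3.1, the aligner STAR 2.7.9a, the trimmer Trim Galore 0.6.5 and the read check FastQC 0.11.9. Columns of the deposited TPM sum to between 999999 and 1000001. TPM keep no depth, so no counting interval or floor is given. The annotation release is not given in the sources used here: 55394 of 55487 identifiers match GENCODE M21 without their version, from which positions are taken.

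The tests took in genes that reached 1 TPM in 3 or more libraries (20209, among them 84 of 86 subunits). For each gene, log2(TPM + 1) in all 48 libraries was fitted on the 16 groups with limma 3.58.1 in R 4.3.3 (with trend, two-sided, Benjamini-Hochberg adjusted over all genes within a comparison, threshold 0.05), and slopes on marker sums were fitted with group means in the model. A call is an adjusted p under 0.05. Where a count at an unadjusted p under 0.05 stands without the share of all genes, it is not read as a result about the subunits. Log2 changes are on the log2(TPM + 1) scale, which understates those of scarce genes. Fits were tested on simulated data. The subunits, gene lists and tests were chosen with earlier results of these data known. Subunits named are the 3 highest and 2 lowest of a complex, the complex IV and c subunit isoforms, up to 4 called per direction with the largest change (others by name), the 2 smallest p-values where none was called, and the 3 largest and smallest standard deviations; per related list up to 2 called, others added; results of 1 item are not reported here. Alternatives were another pseudocount, filters, 2 rescalings, the compared groups alone, no trend, a replicate block, and leaving out libraries. Same-numbered libraries deviated together (every correlation over 0.1) in 1 of 14 comparisons, so the numbers were not taken to pair libraries.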

Additional observations from a re-analysis of the deposited data

How the results depend on the processing

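The counts of called subunits were recomputed with a pseudocount of 0.1, without a filter, with a filter of 1 TPM in 24 libraries, with TPM rescaled by the median of ratios or to nuclear protein-coding genes, with the compared groups alone, without the trend, with a replicate block, without the 9 libraries over 10% ribosomal RNA, and without each library in turn. Apart from single libraries left out, 167 recomputed counts were within 1.5 times the count reported, 13 were smaller and 11 larger. Most comparisons reported no call, and those that stayed without calls are among the 167. The tally therefore says little about the comparisons with calls, whose counts changed under several settings. The 2 comparisons that rest on CYP19A1 glands at 12 months with 1 week of induction could not be fitted without the libraries of high ribosomal RNA.

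For CYP19A1 glands at 24 against 12 months (15) the count was 0 with the median of ratios, 8 with the protein-coding scale, 24 without the trend, 0 without the libraries of high ribosomal RNA (which leaves 1 library at 12 months), 0 with the compared groups alone, and 1 to 63 without single libraries. For the models in uninduced glands (7) it was 1 without the libraries of high ribosomal RNA, 0 with the compared groups alone, 12 and 0 with 12 and 18 or 24 months alone, and 2 to 22 without single libraries. For the models in long-induced glands (7) it was 3 with the strict filter, 3 with the median of ratios, 31 with the protein-coding scale, 4 with the replicate block, 3 without the libraries of high ribosomal RNA, 38 with the compared groups alone, and 1 to 8 without single libraries. Esr1 glands at 24 against 12 months (0) gave 1 with either rescaling and 1 without the libraries of high ribosomal RNA. Without single libraries, 1 week of CYP19A1 induction at 12 months (0) gave 0 to 64 and the model difference at 1 week (0) gave 0 to 1. The slopes on muscle markers (18) gave 8 without a filter, 75 and 70 with the rescalings, 3 in the 12- and 18-month libraries, and 4 to 38 without single libraries; those on brown adipocyte markers (0) gave 24 and 3 with the rescalings and 0 to 3. The slope of Ndufa4l2 on muscle markers turned to 0.062 in the 24- and 30-month libraries. The cause of these changes was not tested. Where a count stands without that over all genes, a change in it need not be particular to the subunits.

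The replicate block, which treats same-numbered libraries as paired, changed no other count by over 1.5 times (11 of CYP19A1 at 24 against 12 months, 6 for the models uninduced, 14 muscle slopes). Depth is unknown, so what it limits cannot be stated.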
